A study of Mus musculus with 10 samples.

Results

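The 10 genes described here encode S100 proteins (S100a4, S100a6, S100a10, S100a11 and S100a13), galectins (Lgals1, Lgals3 and Lgals9) and annexins (Anxa1 and Anxa2). Their RNA was measured in mouse thymic invariant natural killer T (iNKT) cells with and without Id3, an inhibitor of the E protein transcription factors. Every probe set that the platform annotation gives to one of these genes was taken, which made 16 of the 45037 probe sets on the array, and 10 of 19324 annotated genes. The genes were selected on the log2 intensity differences between genotypes and stages on these same arrays. All probe sets went through 1 fit, but for the 10 genes its differences, errors and counts of calls are a description of chosen genes, and no p-value of theirs is printed. Of the 16 probe sets, 14 passed a filter that asked for a log2 intensity above 5.78, which is the table's median value, on 2 or more arrays. The others were a dim probe set each of Anxa1 (lowest and highest intensity over all arrays 37.5 and 41.9) and Anxa2 (35.8 and 38.5).

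The arrays came in 4 groups, all from 6-week-old C57BL/6 mice: Id3KO stage 1 (2 arrays), WT stage 1 (2), Id3KO stage 2 (3) and WT stage 2 (3). Cells that bound the tetramer and lacked CD24 and NK1.1 were sorted from the thymus, and CD44 set the stage, absent at stage 1 and present at stage 2. NK1.1-positive iNKT cells lie outside both gates. The labels call the animals Id3KO without saying which part of the gene is missing or whether it is missing in all cells. They name the replicates biological, with no word on whether animals were pooled.

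S100 proteins are small proteins that change shape on binding calcium through EF hands and then grip partner proteins, S100a10 being the member that has lost calcium binding. Galectins are lectins for beta-galactosides, secreted without a signal peptide, which cross-link glycoproteins such as CD7, CD43 and CD45 on T cells. Annexins attach to acidic phospholipids of membranes when calcium is present, and several act with an S100 partner, annexin A2 with S100a10 and annexin A1 with S100a11. In T cells, several genes of these families are known for high expression in effector and memory cells and low expression in naive cells.

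The stretches before the annotated start are shown for Lgals3 and S100a4, the galectin and the S100 gene with the largest genotype differences below, and for S100a6, the listed S100 gene nearest to S100a4 in RefSeq gene order on mouse chromosome 3. E proteins bind the sequence CANNTG, the E-box, which reads the same way on both strands and is set here in capitals. The sequences are the 250 bases before the start, 5′ to 3′, from RefSeq on build GRCm38.p6, all on the plus strand, at chr14:47373610-47373859 for Lgals3, chr3:90603520-90603769 for S100a4 and chr3:90612644-90612893 for S100a6.
Lgals3: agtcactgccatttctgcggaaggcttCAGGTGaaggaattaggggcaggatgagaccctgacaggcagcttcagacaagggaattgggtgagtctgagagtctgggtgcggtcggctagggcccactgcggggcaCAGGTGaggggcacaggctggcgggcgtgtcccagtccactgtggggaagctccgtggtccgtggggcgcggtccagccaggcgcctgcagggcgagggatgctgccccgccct
S100a4: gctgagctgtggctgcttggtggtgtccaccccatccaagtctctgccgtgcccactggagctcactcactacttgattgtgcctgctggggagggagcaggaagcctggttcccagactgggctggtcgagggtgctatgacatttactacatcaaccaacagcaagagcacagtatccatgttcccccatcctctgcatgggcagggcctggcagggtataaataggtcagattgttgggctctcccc
S100a6: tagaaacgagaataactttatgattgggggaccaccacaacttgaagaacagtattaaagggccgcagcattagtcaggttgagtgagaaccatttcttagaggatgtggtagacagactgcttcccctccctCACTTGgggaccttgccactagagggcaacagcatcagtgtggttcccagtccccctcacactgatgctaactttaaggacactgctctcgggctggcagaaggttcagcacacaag

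Lgals3 had 2 E-boxes in this stretch, beginning 223 and 114 bases before the start, and both read CAGGTG. S100a4 had 0 matches and S100a6 had 1, at 117 bases before the start. Among 32851 promoter stretches of this length in the table, 66.2% held at least 1 CANNTG and 31.8% at least 2. CAGGTG, or CACCTG as it reads on the other strand, was found at least once in 17.2% and at least 2 times in 2.06%. Of the 8 listed genes with a stretch in the table, Lgals3 was the one with CAGGTG or CACCTG, and S100a4, Anxa1 and Anxa2 had no CANNTG there. A match describes letters and is no evidence of binding.

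Id3 and the cell type were checked on the arrays. Id3 itself had a mean intensity of 64.4 ± 1.45 in Id3KO and 1285 ± 4.79 in WT cells at stage 1 (SD, n = 2 each), and of 63.7 ± 8.37 and 905 ± 139 at stage 2 (SD, n = 3 each). Of 8 T cell marker genes, 7 had a kept probe set, with a summed intensity between 9965 and 11877 over all groups. Within that list Cd2 rose, with 1158 ± 57.9 in Id3KO and 529 ± 82.0 in WT cells at stage 1 (SD, n = 2 each, limma adjusted p = 0.0306) and 994 ± 87.7 and 482 ± 89.0 at stage 2 (SD, n = 3 each, adjusted p = 0.0061), and the other 6 did not pass. The 4 iNKT markers summed to 2207 to 2313 in Id3KO and 1942 to 2314 in WT cells over both stages, and of them Slamf6 rose at both stages in Id3KO against WT cells (362 ± 13.7 against 254 ± 10.4, limma adjusted p = 0.0376, and 337 ± 19.4 against 218 ± 4.61, adjusted p = 0.0022). Cd44, the sort marker, lay at 280.1 to 577 at stage 2 against 130.3 to 255 at stage 1 in Id3KO cells, and at 653 to 858 against 147 to 224 in WT cells. Myeloid cells express many genes of these families, and 7 of 14 myeloid markers had a kept probe set. Their summed intensity was 1020.5 to 1059.6 in Id3KO and 970.4 to 1077 in WT cells at stage 1, and 1042 to 1099 and 993 to 1008 at stage 2, with 0 of the 7 called between genotypes at either stage (limma). The sum hides single genes that lay apart without overlap: Cst3 averaged 446 in Id3KO and 567 in WT cells at stage 1 and 469.7 and 539 at stage 2, and Ms4a6c 281 and 131 at stage 1 and 203 and 132 at stage 2. Fcer1g averaged 149 in Id3KO and 85.8 in WT cells at stage 2. The part of such cells in the results was not tested. Cd68, Tyrobp, Itgam, Itgax, Cybb, Adgre1 and Clec7a did not reach the filter. Neither did S100a8 and S100a9, the calprotectin subunits of neutrophils and monocytes. S100a8 did read 78.3 on replicate 3 of WT stage 2, above the filter level of 55.1, and at most 51.1 on any other array. S100a9 was also brightest on that array, at 51.1.

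Of the S100 genes, S100a4 differed most between the genotypes. S100a4 binds nonmuscle myosin and is known for its part in cell motility. Its intensity was 334 and 247 on the Id3KO stage 1 arrays, against 947 and 731 on the WT stage 1 arrays. At stage 2 it was 378, 594 and 619.8 in Id3KO cells, against 1259, 1556 and 1620.2 in WT cells. No Id3KO array reached the lowest WT array of its own stage, and the Id3KO stage 2 arrays also stayed below the WT stage 1 arrays. The groups thus stood in the order WT stage 2, WT stage 1, Id3KO stage 2 and Id3KO stage 1, with no overlap between neighbours. The log2 difference of S100a4, Id3KO minus WT, was -1.53 ± 0.26 at stage 1 (SE, 2.90-fold lower) and -1.504 ± 0.213 at stage 2 (SE, 2.84-fold lower).

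The other S100 genes showed small differences. S100a6, which binds the calcyclin-binding protein Cacybp, averaged 1350.1 ± 325 in Id3KO and 1610.1 ± 101 in WT cells at stage 1 (SD, n = 2 each) and 1607 ± 151 and 1661 ± 179 at stage 2 (SD, n = 3 each), with overlap at both stages. S100a13, which takes part in the release of fibroblast growth factor 1, averaged 199 ± 25.7 in Id3KO and 246 ± 16.7 in WT cells at stage 1 and 224 ± 10.2 and 251 ± 13.4 at stage 2. Its Id3KO arrays lay below the WT arrays at either stage, by a log2 difference of -0.31 ± 0.11 and -0.16 ± 0.09 (SE). The probe set of S100a11 is shared with its pseudogene S100a11-ps and with Gm12854, so its signal cannot be given to 1 gene. It averaged 2813 ± 255 in Id3KO and 3376 ± 66.2 in WT cells at stage 1 and 3369 ± 74.3 and 3664 ± 194 at stage 2, again without overlap, a log2 difference of -0.27 ± 0.09 and -0.12 ± 0.08 (SE).

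S100a10 had 3 kept probe sets that did not move alike. The brightest, of a class that may bind other transcripts, stood at -0.26 ± 0.10 at stage 1 and -0.00 ± 0.08 at stage 2 (log2, SE). The next stood at -0.20 ± 0.09 and -0.06 ± 0.08, and the dimmest at 0.28 ± 0.28 and -0.43 ± 0.23, with overlapping groups in both comparisons. At stage 2 the groups overlapped for all 3.

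**Figure D1:**
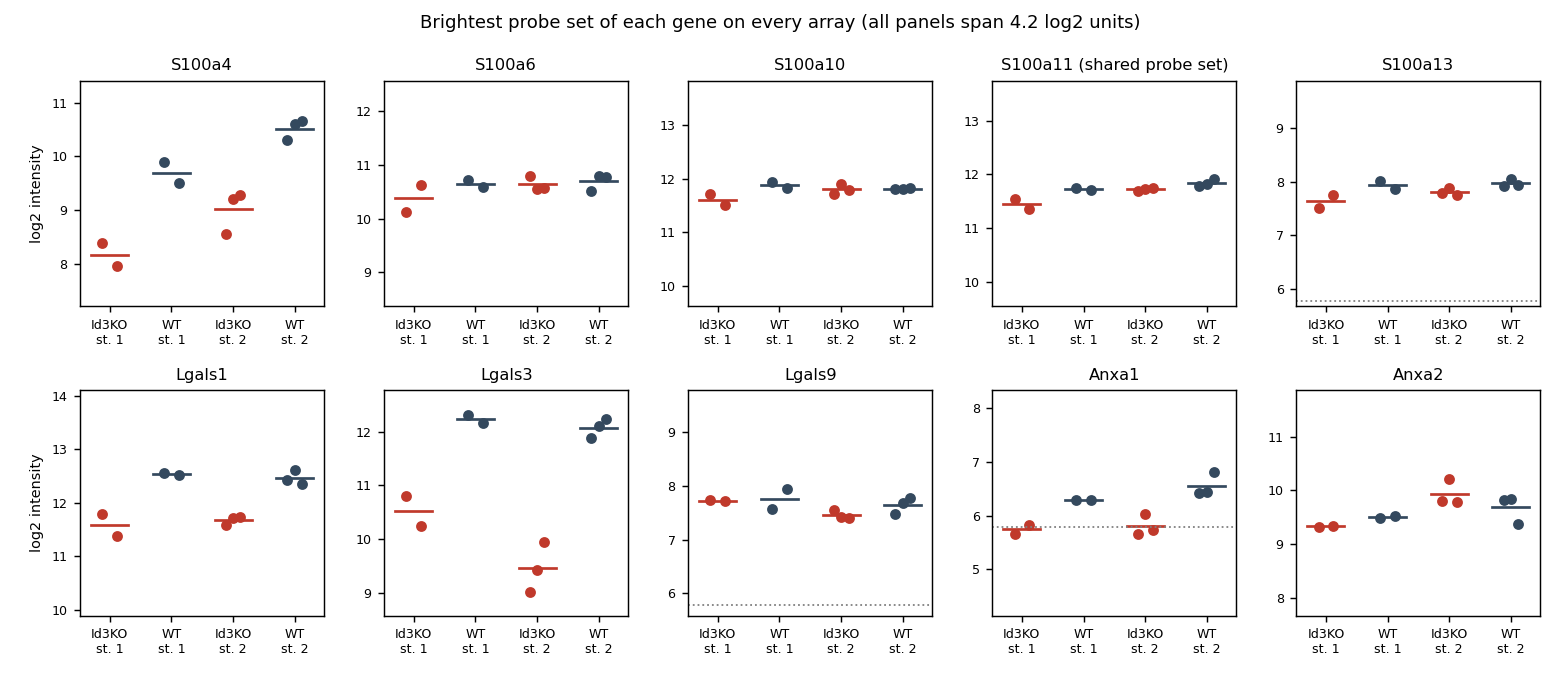
Log2 intensity of the brightest probe set of each gene, with a point per array and a bar at the group mean. Id3KO groups are in red and WT groups in dark blue, with Id3KO left of WT at each stage (st. 1 and st. 2). The dotted line is the filter level of 5.78. Lgals3, S100a4 and Lgals1 lie lower on every Id3KO array than on the WT arrays of the same stage, while the genotypes overlap for S100a6 and Lgals9 at both stages and for S100a10 and Anxa2 at stage 2.

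Galectins 1 and 3 were lower in Id3KO cells and galectin 9 overlapped between the genotypes. Lgals3 encodes galectin 3, the chimeric galectin with a collagen-like tail, which acts in the nucleus and cytoplasm and outside the cell. Its probe set read 1777 and 1218 on the Id3KO stage 1 arrays, against 5119 and 4620.0 on the WT stage 1 arrays. At stage 2 the values were 519, 686 and 985 in Id3KO cells, against 3799.9, 4396 and 4799 in WT cells. The highest Id3KO array, at 1777, was thus less bright than the dimmest WT array of either stage, at 3799.9. The log2 difference was -1.72 ± 0.28 at stage 1 (SE, 3.30-fold lower, rank 12 from the lowest of 25061 tested) and -2.61 ± 0.23 at stage 2 (SE, 6.11-fold lower, rank 7).

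Lgals1 encodes galectin 1, a dimer that can trigger death of activated T cells and thymocytes from outside. Both of its probe sets gave the same picture. The brighter read 3533 and 2674 on the Id3KO stage 1 arrays, against 5999.5 and 5846 on the WT stage 1 arrays, and 3083, 3365 and 3394 in Id3KO stage 2 cells, against 5486, 6234 and 5275 in WT stage 2 cells. Stage made little difference within either genotype, and every Id3KO array was below every WT array. The log2 differences of this probe set were -0.95 ± 0.14 and -0.79 ± 0.11 at stages 1 and 2, and those of the dimmer one -1.14 ± 0.13 and -0.97 ± 0.11 (SE). In folds, Lgals1 was 1.93 and 2.20 times lower in Id3KO cells at stage 1 by the brighter and the dimmer probe set, and 1.72 and 1.96 times lower at stage 2. Lgals9 encodes a galectin with a pair of sugar-binding domains, a ligand of TIM-3, which is a surface protein on T cells. Lgals9 averaged 211 ± 3.34 in Id3KO and 219 ± 40.6 in WT cells at stage 1 (SD, n = 2 each). At stage 2 it averaged 177 ± 9.74 and 201 ± 20.5 (SD, n = 3 each). The genotypes overlapped at both stages.

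Of the annexins, Anxa1 was lower on every Id3KO array at both stages and Anxa2 at stage 1. Anxa1 encodes annexin A1, a mediator induced by glucocorticoids that dampens inflammation through formyl peptide receptors. Its kept probe set was dim, at 50.5 and 57.0 on the Id3KO stage 1 arrays, against 79.0 and 78.0 on the WT stage 1 arrays, and at 50.5, 66.0 and 52.9 in Id3KO stage 2 cells, against 86.0, 87.0 and 112 in WT stage 2 cells. No Id3KO array reached a WT array. The Id3KO stage 1 mean of 5.75 lay below the filter level of 5.78, so no size is given for that difference. The Id3KO stage 2 mean of 5.81 lay just above it, with a log2 difference of -0.75 ± 0.13 (SE).

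Anxa2 encodes annexin A2, which links membranes to actin and binds S100a10. Its brighter kept probe set read 638 and 646 on the Id3KO stage 1 arrays, against 720.1 and 741 on the WT stage 1 arrays. At stage 2 it read 899.6, 1183 and 887 in Id3KO cells, against 907, 922 and 663 in WT cells. The Id3KO arrays were the lower ones at stage 1, and the groups overlapped at stage 2. The log2 difference was -0.19 ± 0.18 at stage 1 and 0.26 ± 0.15 at stage 2 (SE). The dimmer kept probe set, which may bind other transcripts, was lower on each Id3KO array at stage 1 (64.4 and 63.2, against 66.9 and 69.9 in WT) and higher on each at stage 2 (75.4, 87.6 and 76.6, against 71.1, 72.8 and 69.4 in WT).

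**Figure D2:**
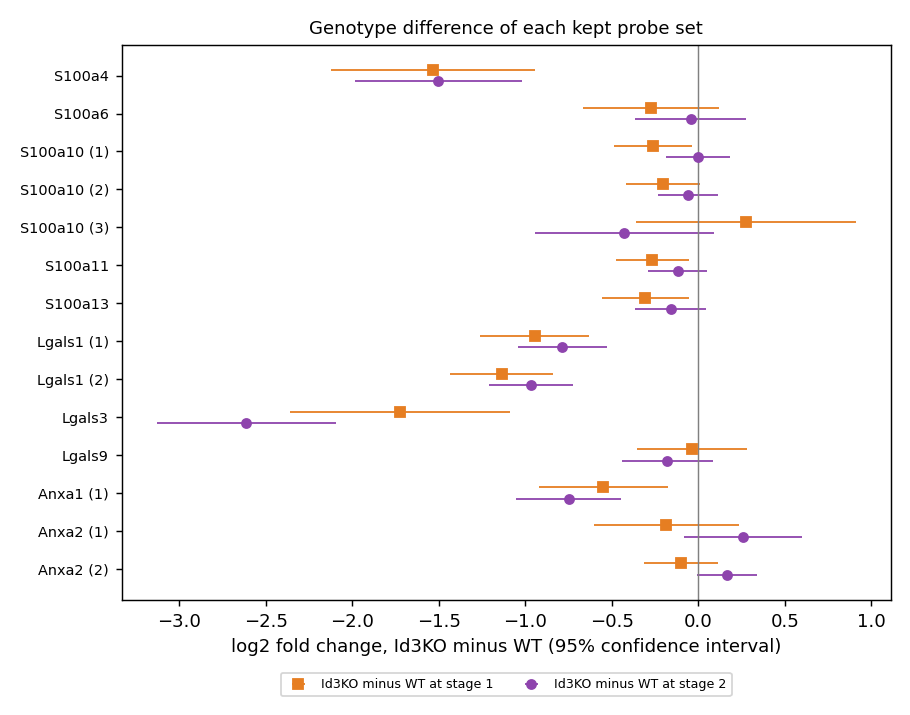
Log2 fold change, Id3KO minus WT, with its 95% confidence interval, for the 14 kept probe sets at stage 1 (orange squares) and stage 2 (purple circles). Numbers in brackets count the probe sets of a gene from the brightest. Lgals3 reaches -2.61 at stage 2, S100a4 lies at -1.53 at stage 1 and -1.504 at stage 2, and the intervals of S100a6, Lgals9 and Anxa2 cross 0 at both. The Anxa1 value at stage 1 rests on an Id3KO mean below the filter level.

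Counted together, 4 of the 14 kept probe sets were called lower at stage 1 by limma at an adjusted p under 0.05 over all 25061 tested probe sets, of which 0.802% were called, 0.459% higher and 0.343% lower. They belonged to S100a4, Lgals1 (both probe sets) and Lgals3. At stage 2 the count was 5, those 4 and Anxa1, where 4.21% of all probe sets were called, 1.82% higher and 2.39% lower. These counts repeat the values by which the genes were chosen and carry no weight of their own. The Id3KO arrays lay below all WT arrays for 11 of the 14 at stage 1 (22.8% of all tested probe sets) and for 7 at stage 2 (10.5%), and above them for 0 and 1 (18.7% and 10.9%). The median log2 difference of the 14 was -0.27 at stage 1 and -0.17 at stage 2, beside medians of -0.01 and 0.01 over all tested probe sets.

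The stage 1 count rested on few arrays. Dropping either WT stage 1 array left 0, as did a fit of the 4 stage 1 arrays alone. Dropping replicate 1 of Id3KO stage 1 left 2, and dropping its replicate 2 left 1. Leaving out WT replicate 1, 2 or 3 of stage 2, each of which also serves the pooled error, gave 2. Over 20 alternatives the stage 1 log2 difference ranged from -1.75 to -1.32 for S100a4, from -1.15 to -0.75 for the brighter probe set of Lgals1 and from -1.997 to -1.45 for Lgals3. At stage 2 the count was 4 or 5 without any 1 array. The call of Anxa1 ended when replicate 3 of WT stage 2, or replicate 1 or 3 of Id3KO stage 2, was dropped, and in a fit of the 6 stage 2 arrays alone, and a stricter filter at log2 6.5 removed its probe set from the test.

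Between the stages, S100a4 had the largest log2 difference of the 10 genes in WT cells, at 0.82 ± 0.24 (SE, stage 2 minus stage 1), and it stood at 0.85 ± 0.24 in Id3KO cells. Its stage 2 arrays lay above the stage 1 arrays in both genotypes. Lgals3 went the other way in Id3KO cells, at -1.06 ± 0.26, with 519 to 985 at stage 2 against 1218 to 1777 at stage 1, and it stood at -0.17 ± 0.26 in WT cells, where the stages overlapped. Anxa2 was higher at stage 2 in Id3KO cells by 0.61 ± 0.17 with its brighter probe set and by 0.32 ± 0.09 with its dimmer kept one, without overlap, and by 0.17 ± 0.17 and 0.06 ± 0.09 in WT cells, with overlap. Lgals1 moved by 0.09 ± 0.13 in Id3KO and -0.07 ± 0.13 in WT cells with its brighter probe set.

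No listed probe set was called between stages. The count was 0 of 14 in Id3KO cells, where 0% of all probe sets were called by limma, and 0 of 14 in WT cells, where 0.016% were, 0.012% higher and 0.00399% lower. Without adjustment, 5 of the 14 in Id3KO cells were under 0.05, as were 4.51% of all probe sets, and 1 of the 14 in WT cells, as were 8.06% of all. These counts too describe chosen genes. For the interaction, which asks whether the genotype difference changes with stage, 0 of 14 were called, and so were 0% of all probe sets. Without adjustment 1 of the 14 was under 0.05, beside 7.07% of all probe sets. For Lgals3 the stage 2 genotype difference minus the stage 1 one was -0.89 ± 0.36 (log2, SE), which is a description and was not called. Stage 2 arrays lay above stage 1 arrays for 5 of the 14 in Id3KO (9.45% of all) and 3 in WT cells (11.8%), and below them for 2 (8.91%) and 1 (14.4%). The stage and genotype comparisons share arrays, so they are not independent of each other.

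**Figure D3:**
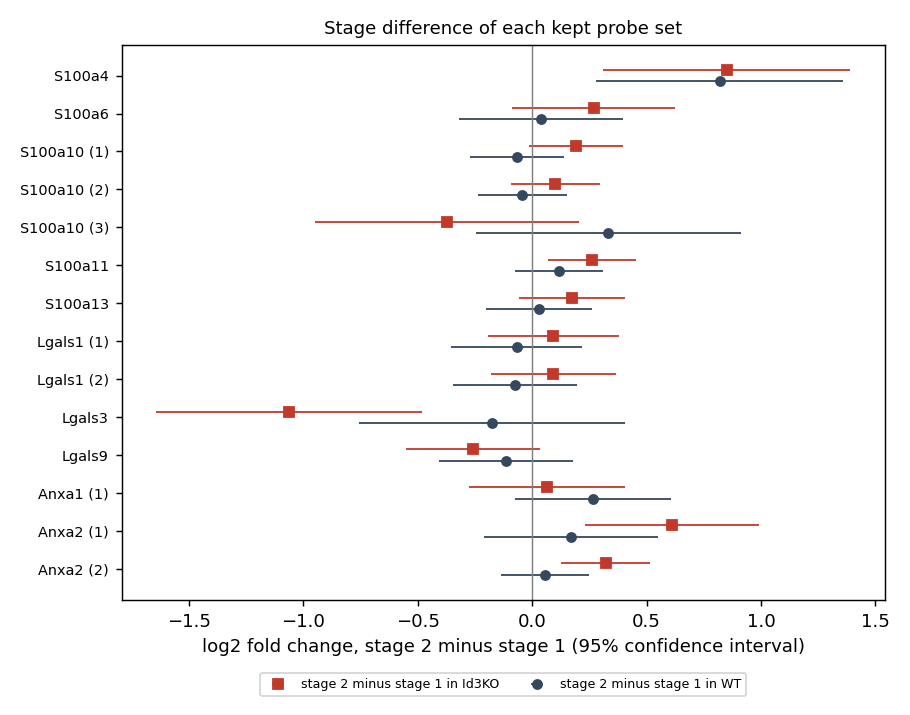
Log2 fold change, stage 2 minus stage 1, with its 95% confidence interval, for the 14 kept probe sets in Id3KO cells (red squares) and WT cells (dark blue circles). S100a4 lies above 0 in both genotypes (0.85 and 0.82), and Lgals3 reaches -1.06 in Id3KO cells.

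The rest of the 3 families, outside the 10 genes, was tested in the same fit. Of 28 further family genes, 25 had a probe set and 11 a kept probe set of their own. Of these 11, 1 fell and 0 rose at stage 1, and 1 fell and 0 rose at stage 2, with a median log2 difference of 0.04 and 0.01. The gene that fell was Anxa6, annexin A6, an annexin with a doubled set of repeats that binds membranes and has been tied to cholesterol handling and receptor traffic. Its brightest probe set read 209 and 240.4 on the Id3KO stage 1 arrays, against 467 and 491 on the WT stage 1 arrays. At stage 2 it read 201, 193 and 257 in Id3KO cells, against 580.1, 618 and 625 in WT cells. All Id3KO arrays were below all WT arrays, and the Id3KO arrays of the stages overlapped.

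The log2 difference of Anxa6 was -1.10 ± 0.14 at stage 1 (SE, 2 arrays against 2, limma adjusted p = 0.0131) and -1.497 ± 0.115 at stage 2 (SE, 3 arrays against 3, adjusted p = 0.000473). Over 20 alternatives the limma adjusted p at stage 1 ranged up to 0.103, its value when replicate 1 of the WT stage 1 arrays was dropped. It was 0.102 with replicate 2 of that group dropped, 0.0901 with replicate 1 of Id3KO stage 1 dropped and 0.0768 in a fit of the 4 stage 1 arrays alone. The stage 2 call held in all 20. The array had 3 other kept probe sets of Anxa6. At stage 2 the next brightest stood at -1.10 (limma adjusted p = 0.0116), another at -0.93 (adjusted p = 0.0074) and the last at -0.65 (adjusted p = 0.0623), and at stage 1 these were at -0.47, -0.31 and -0.23 and did not pass.

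The remaining 10 family genes with a kept probe set did not pass at either stage. Among annexins these were Anxa4 (limma adjusted p = 0.646 at stage 1 and 0.0633 at stage 2), Anxa5, the annexin used to stain dying cells (0.30 ± 0.16 and 0.01 ± 0.13, adjusted p = 0.58 and 0.987), and Anxa7 (0.35 ± 0.14 and 0.18 ± 0.11, adjusted p = 0.4 and 0.494). Anxa4 passed at stage 2 when only 1 probe set per gene was tested, and its Id3KO stage 2 mean of 5.77 lay below the filter level, so no size is given. Lgals2, Lgals4, Lgals7, Lgals8 and Lgalsl, a galectin-like protein, lay between -0.41 and 0.19 at the stages. S100a1 and S100a16 did not pass either, at 0.07 and 0.00 at stage 2. Between stages and in the interaction 0 of the 11 were called by limma. An unadjusted p under 0.05 was reached by 1 of the 11 between stages in WT cells, and by 0 between stages in Id3KO cells and in the interaction. Between genotypes, 2 of the 11 reached it at stage 1 and 4 at stage 2, Anxa6 included. The share of all probe sets that did so between genotypes was not counted, so these counts have no baseline.

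Genes whose products bind S100 proteins, galectins or annexins, or shape their sugar ligands, were taken as a further list of 13, of which 10 had a kept probe set. At stage 1, 0 of 10 were called by limma, and at stage 2, 2 fell, 0 rose and 8 did not pass. Among the 2 was Cd7, whose fall was known when the list was drawn up. Without adjustment, 1 of the 10 was under 0.05 at stage 1 and 7 at stage 2. The share of all probe sets under 0.05 without adjustment was not counted between genotypes. Without that share, these unadjusted counts cannot be read as a result about the list. Ahnak, a giant scaffold under the plasma membrane that binds the complex of S100a10 and annexin A2, had 493, 429 and 620.5 in Id3KO stage 2 cells, against 907, 1003 and 1064 in WT stage 2 cells. It fell by 0.96 ± 0.18 (log2, SE, limma adjusted p = 0.0204). The limma adjusted p of Ahnak rose to 0.0702 and 0.082 when replicate 2 or 3 of WT stage 2 was dropped, and to 0.0612 and 0.0656 when replicate 1 or 2 of Id3KO stage 2 was. A dimmer kept probe set of Ahnak, with an Id3KO mean below the filter level, did not pass (limma adjusted p = 0.718). At stage 1 Ahnak overlapped, with 699 and 462 in Id3KO against 670.2 and 771 in WT cells, at -0.34 ± 0.22 (adjusted p = 0.674).

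Cd7, a T cell surface protein through which galectin 1 acts, had 102, 118 and 138 in Id3KO stage 2 cells, against 300.4, 437 and 413 in WT stage 2 cells. It was lower by 1.68 ± 0.15 (log2, SE). Its fall was known from earlier work on these arrays when the list was drawn up. Its call is thus a description, and no p-value is printed for it. At stage 1 Cd7 had 109 and 113 in Id3KO against 207 and 206 in WT cells, without overlap, at -0.89 ± 0.19 (not called). The other galectin 1 counterreceptors on this list, CD45 and CD43, did not pass. Ptprc, which encodes CD45, stood at 0.20 ± 0.12 and -0.05 ± 0.10 at stages 1 and 2 (limma adjusted p = 0.649 and 0.883), and Spn, which encodes CD43, at -0.01 ± 0.09 and -0.18 ± 0.07 (adjusted p = 0.992 and 0.234). Mgat5, the enzyme that builds branched N-glycans which galectins bind, stood at -0.40 ± 0.20 and -0.46 ± 0.17 (limma adjusted p = 0.568 and 0.195). Its dimmer kept probe set stood at -0.28 and -0.50 (limma adjusted p = 0.657 and 0.0955). Neither passed. Both were lower on every Id3KO array at both stages, as were 22.8% of all tested probe sets at stage 1 and 10.5% at stage 2.

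**Figure D4:**
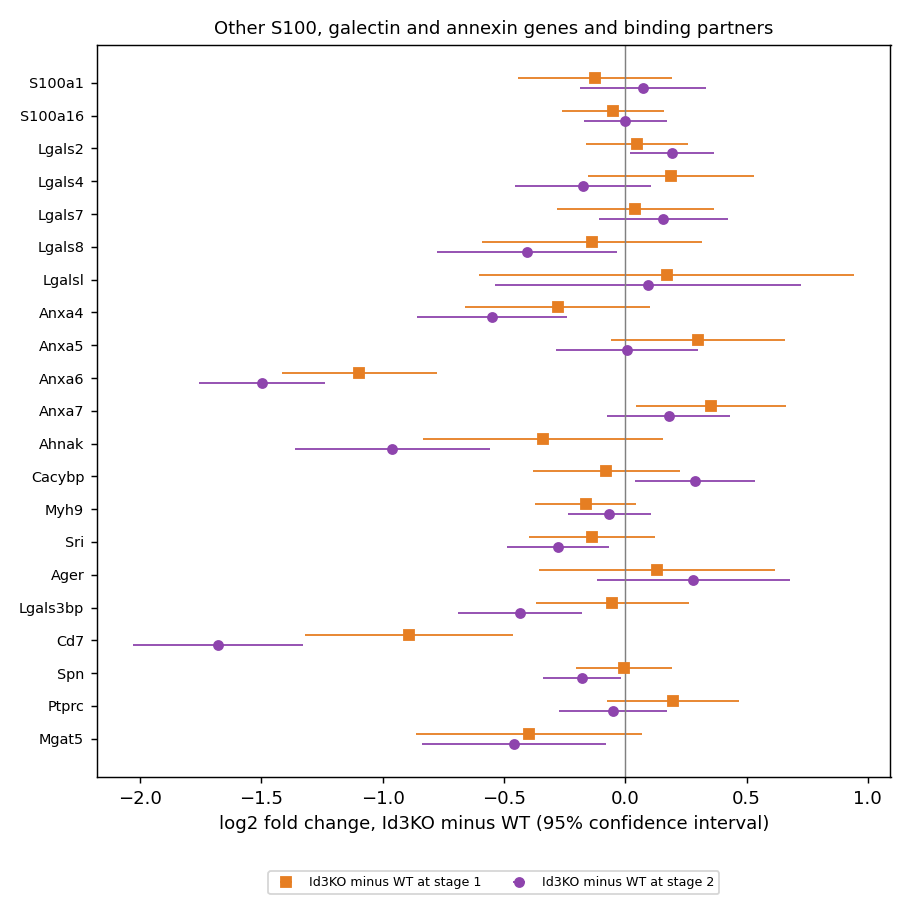
Log2 fold change, Id3KO minus WT, with its 95% confidence interval, for the brightest kept probe set of 11 further family genes and 10 binding partners, at stage 1 (orange squares) and stage 2 (purple circles). Anxa6 is lower at both stages (-1.10 and -1.497), and Ahnak and Cd7 reach -0.96 and -1.68 at stage 2. S100a1 at stage 1 and Anxa4 at stage 2 rest on Id3KO means below the filter level.

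**Figure D5:**
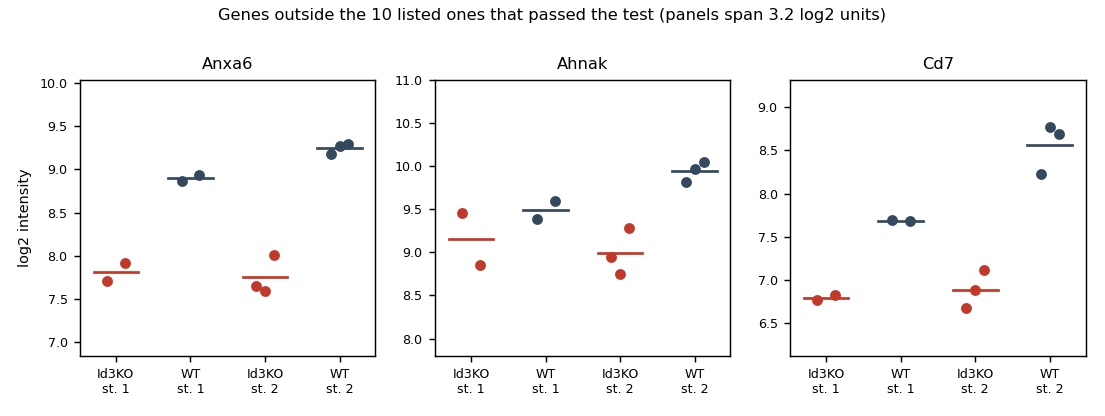
Log2 intensity on every array of Anxa6, Ahnak and Cd7, with a bar at each group mean, Id3KO in red left of WT in dark blue. The Id3KO arrays of Anxa6 and Cd7 lie below all WT arrays, and those of Ahnak overlap the WT arrays at stage 1.

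The arrays measure sorted populations, in which fewer cells of a kind and less RNA per cell cannot be told apart. Markers of iNKT subsets also differed between the genotypes, with more calls at stage 2 than at stage 1. The 8 kept of 11 markers of NKT17 cells, which make interleukin 17, summed to 589.6 to 626 in Id3KO and 892 to 1139 in WT cells at stage 1 and to 568 to 769.9 and 2598 to 4337 at stage 2. At stage 2 all 8 fell by limma, and Rora alone did at stage 1. Il17a and Il23r were among the markers that did not pass the filter. The 9 kept of 10 markers of NKT1 cells, which make interferon gamma, summed to 1080.2 to 1599 in Id3KO and 1810.3 to 1824 in WT cells at stage 1. At stage 2 they summed to 1234 to 1580.4 and 3605 to 3726. Of the 9, 0 were called at stage 1 and 6 fell at stage 2. The 5 NKT2 markers summed to 2775 to 2789.99 in Id3KO and 2913 to 3429 in WT cells at stage 1 and to 2778 to 3127 and 3219.98 to 3309.8 at stage 2, with Il13 lower at both. The part of subset makeup in the differences of Lgals3, Lgals1, S100a4, Anxa1, Anxa6, Ahnak and Cd7 was not tested.

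The genes with the most similar pattern over the 10 arrays were found by Pearson correlation of log2 intensities with the brightest probe set of each listed gene. Such an r includes the difference between the groups. For Lgals3 they were Itgae, the alpha chain of the integrin CD103 (r = 0.98), Ifi47, a GTPase induced by interferon gamma (0.98), and Prkcb, protein kinase C beta (0.96). S100a4 was followed most closely by Tspo, a protein of the outer mitochondrial membrane (0.97), Myl12a, a regulatory light chain of nonmuscle myosin (0.97), and Il18rap, a subunit of the interleukin 18 receptor (0.96). For Lgals1 the closest were Capn2, a calcium-activated protease (0.97), Abi3, an adaptor for actin assembly (0.97), and Gbp6, a guanylate-binding protein (0.97). Those nearest to Anxa1 were P2ry10, a receptor for lysophospholipids (0.97), Rarg, a retinoic acid receptor (0.97), and Tmem176b, a membrane protein that is also on the NKT17 marker list (0.97). For Anxa2, whose brightest probe set overlapped between genotypes at stage 2, they were Cmc2 (0.96), Rnaseh2c, a subunit of ribonuclease H2 (0.95), and Tpm4, a tropomyosin (0.94). The closest genes to S100a6 (Fuom, Sos2 and Trp53rka, r = 0.88 to 0.85), S100a10 (Trgv1, Tarbp2 and Rfc2, 0.93 to 0.86), S100a11 (Tspo, Ccr2 and Slc25a24, 0.90 to 0.87), S100a13 (Galnt1, Rab33b and Tnfaip8, 0.93 to 0.92) and Lgals9 (Atm, Mta2 and Ikzf5, 0.93 to 0.89) were less alike. Among the listed genes, Lgals1 had an r of 0.91 with Lgals3 and 0.87 with S100a4, while Anxa2 stood at -0.05 with Lgals1 and -0.41 with Lgals3.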

How the data were processed

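The authors deposited 1 table of probe set intensities on a linear scale for 10 Affymetrix arrays. RMA made them, per the submitters' processing notes, with version and genome build not given in the sources used here. The labels' protocols give RNeasy Micro extraction and a 2-cycle labelling. The intensities ran from 29 to 15399, and array medians from 54.8 to 55.5. Their log2 was taken here.

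Probe sets brighter than the table's median value on 2 or more arrays (25061 of 45037) were fitted with limma 3.58.1 in R 4.3.3, with 1 mean per group and 6 residual and 2.80 prior degrees of freedom. The 5 two-sided contrasts were adjusted by Benjamini and Hochberg over all tested probe sets, with calls at adjusted p under 0.05. The fit was tested on simulated data with changes placed in the Id3KO stage 2 group, for the genotype comparison at stage 2 only. The stage 1 comparison was not tested in this way. A platform annotation named genes. Outside the 10 genes, the brightest kept probe set of 1 gene stood for it. Named were all probe sets of the 10, every called gene of the family and partner lists, examples from the lists, and for each of the 10 the 3 genes of most similar pattern. The members and lists were chosen with earlier results of these data known. The number of arrays limits precision, and no interval for counting error applies.

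Alternatives were no filter, a filter at log2 6.5, another quantile normalization, median centring, a trended robust prior, weights per array, a fit of only the arrays compared, a replicate block, 1 probe set per gene, and each array left out. A block with crossed numbers was added after seeing the data.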

Additional observations from a re-analysis of the deposited data

How the results depend on the processing

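The direction of each called value of Anxa6 and Ahnak was the same under all alternatives run. For the 10 genes, and for Cd7, whose fall was known beforehand, the choice itself fixes the direction, so its constancy shows nothing. For Id3KO against WT at stage 1, the count of called probe sets of the 10 genes was 4 in the reported fit, 2 without a filter, and 0 with only the arrays compared. Over the 10 fits that leave out 1 array it lay between 0 and 4. For the other family and partner genes at stage 1 the count was 1 in the reported fit, 2 with array weights (Anxa6 and Cd7), 0 with only the arrays compared, and 0 to 2 without 1 array. With array weights, Cd7 was also called between stages in WT cells (count 1 against 0). At stage 2 the counts of Id3KO against WT stayed within 4 to 5 for the 10 genes and 2 to 3 for the others without 1 array, and between stages and in the interaction they were 0 throughout those fits. The cause of these shifts was not tested, except that leaving out arrays and fitting 4 of them reduce the samples. With the replicate block, the stage 1 count of the 10 genes was 2 (Lgals3 and 1 probe set of Lgals1), and the counts of all other comparisons were unchanged. For arrays of the same number, deviations from the group means correlated at -0.14 between the genotypes at stage 1 and at -0.02, -0.02 and 0.13 at stage 2. Between the stages they correlated at 0.05 and 0.12 in WT cells and at -0.19 and -0.04 in Id3KO cells. In a group of 2 arrays the deviations mirror each other, so the values that involve stage 1 cannot decide whether the arrays are paired. The stage 2 genotype values come from groups of 3 arrays. They differed in sign and showed no steady pairing by number. With the Id3KO stage 1 numbers crossed, the counts were 4 at stage 1 and 5 at stage 2, as without a block. Anxa1 lay near the filter level, which limits the size of its difference, and the stricter filter removed it (count 4 against 5 at stage 2). With 2 arrays a group, stage 1 calls lean on the spread pooled over all 4 groups.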
